A study of Mus musculus with 9 samples.

Results

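The comparison described here set mouse bone marrow cultures that carried NUP98-NSD1 together with NRASG12D against cultures that carried NRASG12D alone. Its members were taken by their sample labels, 3 libraries of NUP98-NSD1+NRASG12D and 3 of NRASG12D, which makes 6 of the 9 RNA-seq libraries of the series. The other 3 libraries, labelled NUP98-NSD1, had the fusion alone and are given only where they set a level in context. All cultures started from bone marrow of C57BL/6J mice, young adult females per the methods, that had received 5-fluorouracil at 150 mg/kg 4 days before harvest. The marrow was stimulated for 48 h in medium with 15% fetal bovine serum, human IL-6 at 10 ng/mL, mouse IL-3 at 6 ng/mL and mouse SCF at 20 ng/mL before retroviral transduction. NUP98-NSD1 was carried by an MSCV vector that also encodes GFP, and NRASG12D by an MSCV vector that also encodes BFP, so both genes were driven by the viral promoter and not by their own. Cells were sorted as GFP+BFP+ for NUP98-NSD1+NRASG12D and as BFP+ for NRASG12D and then expanded in culture. Both sides of the comparison thus carried NRASG12D, and the fusion was what had been added. Per the study's account of its cells, the NRASG12D cultures were largely mast cells bearing the IgE receptor and declined in culture, so the added fusion and the kind of cell that had grown out cannot be told apart in these libraries.

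NRAS is a small GTPase that passes signals from growth factor receptors to the RAF, MEK and ERK kinases, and the G12D change holds it in its active, GTP-bound form. NUP98-NSD1 fuses the start of NUP98, from the nuclear pore, to NSD1, which methylates histone H3 at K36, and is found in acute myeloid leukemia, where it is known for high expression of HOXA genes. Bone marrow progenitors kept in IL-3 and SCF can become mast cells, which depend on GATA factors, MITF and the receptor Kit, store proteases on serglycin and heparin, and carry the high-affinity IgE receptor. Neutrophils and monocytes arise instead under PU.1 and the C/EBP factors. Developing neutrophils fill azurophil granules first, with myeloperoxidase and elastase, and specific and gelatinase granules later, with lactoferrin, lipocalin and metalloproteinases.

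The values were deposited FPKM, that is, fragment counts divided by transcript length and by library size, 1 value per gene and library. The steps between low values put the depth at 22400000 to 35300000 fragments in the 6 libraries, so 3 fragments of a transcript of 1 kb amount to 0.0851 to 0.134 FPKM, a floor that covers counting error only. Of the genes, 13493 reached 1 FPKM in at least 3 of the 9 libraries and were tested by limma after a log2(FPKM + 1) transform, with Benjamini-Hochberg adjusted p-values. At an adjusted p under 0.05, 5173 genes were called, which is 38.3% of those tested, 3266 of them higher with the fusion added (24.2%) and 1907 lower (14.1%). The groups did not overlap for 7905 genes, 58.6% of those tested. Counts of calls and of groups without overlap given below are to be set beside these shares. Over the tested genes the fold change had a median, on the log2 scale, of 0.23 with the deposited values, 0.03 after median-ratio scaling and -0.05 after quantile normalization, and the share of calls that were higher went from 63.1% to 50.9% and 41.3%. Of the called genes, 4050 were called with the same sign on all 3 scales, 2144 higher and 1906 lower. Without NRASG12D replicate 1, 2 or 3 the count of calls was 3069, 3159 and 2941. Replicates of NRASG12D differed by a median of 0.12 to 0.15 on the log2 scale and those of NUP98-NSD1+NRASG12D by 0.29 to 0.47. The labels do not say whether the replicates came from separate animals or transductions, so the p-values measure only the spread between these libraries. Values per library are given below in the order of replicates 1, 2 and 3, and log2 fold changes are those of FPKM + 1, NUP98-NSD1+NRASG12D over NRASG12D, which understates the change of genes with low values.

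Nras itself read 354, 479 and 348 FPKM in the NRASG12D libraries and 245, 262 and 701 FPKM with the fusion added. Its values overlapped, with replicate 3 of NUP98-NSD1+NRASG12D above the rest, and it was not called (adjusted p = 0.819). The libraries of the fusion alone had 50.3, 47.7 and 51.2 FPKM, below all 6 libraries made with the NRAS vector. Nup98 had 9.12, 11.1 and 10.9 FPKM without the fusion and 11.9, 15.6 and 20.2 FPKM with it, so that the groups did not overlap, but the difference was not called (log2 fold change 0.55, adjusted p = 0.0818, and adjusted p = 0.0183 without replicate 1 of NUP98-NSD1+NRASG12D). Nsd1 overlapped and was not called, with 11.7, 14.7 and 12.7 FPKM against 9.98, 13.8 and 16.2 FPKM (adjusted p = 0.969). A single FPKM value per gene does not separate vector transcripts from those of the mouse gene.

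**Figure D1:**
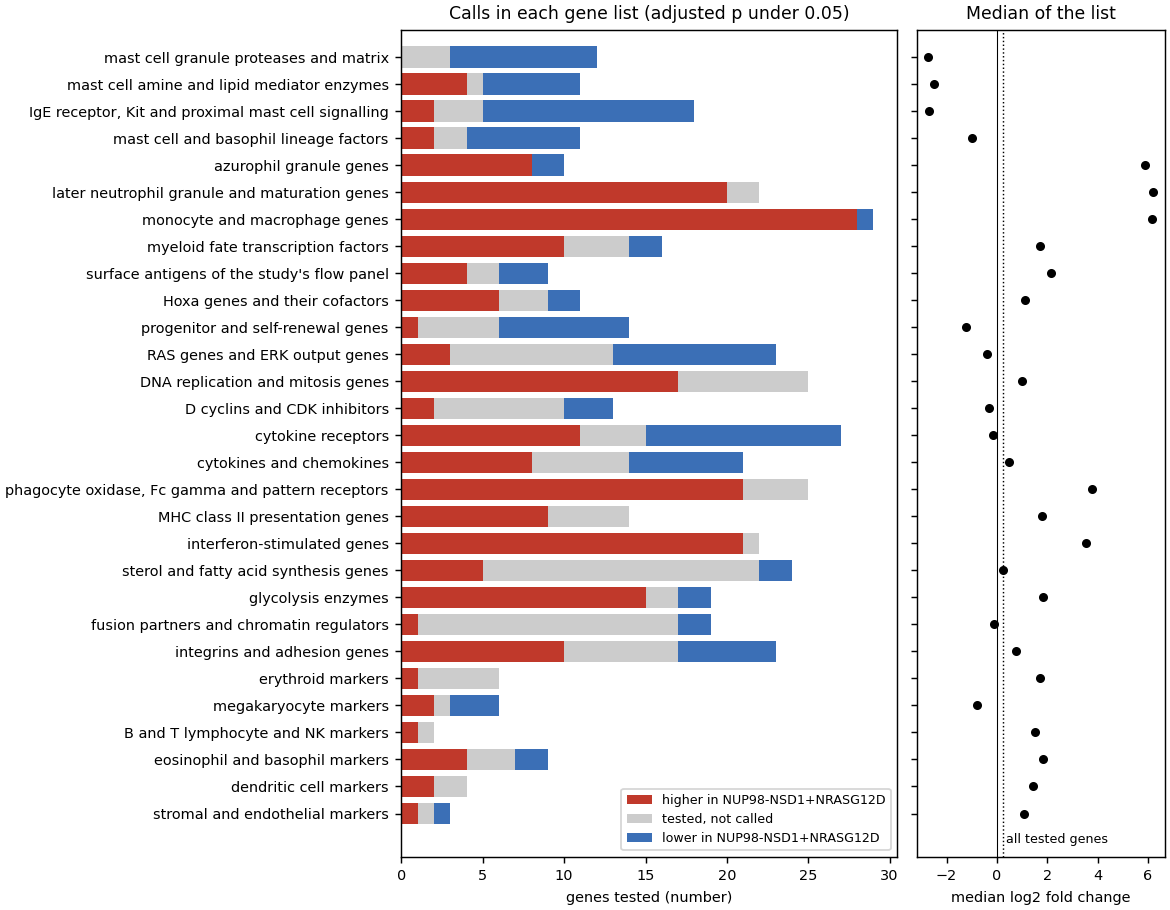
Left, for each gene list, the number of tested genes called higher in NUP98-NSD1+NRASG12D (red), not called (grey) and called lower (blue), at an adjusted p under 0.05 in the comparison with NRASG12D. Right, the median log2 fold change of each list, with the median of all tested genes as a dotted line at 0.23; the mast cell lists lie below it, and the neutrophil, monocyte and macrophage, phagocyte receptor and interferon-stimulated lists lie well above it.

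Mast cell granule transcripts were among the most abundant in the NRASG12D cultures and were far lower with the fusion added. Of 12 tested genes of granule proteases and matrix, 9 were lower, 0 were higher and 3 were not called, with a median log2 fold change of -2.73 against 0.23 for all genes, and the 9 calls held on both other scales. The summed level of the list was 28489.5 to 29814 FPKM in NRASG12D and 1303 to 3234 FPKM in NUP98-NSD1+NRASG12D. In bulk RNA, fewer cells of a type and less RNA per cell cannot be told apart. Cma1 (ENSMUSG00000022225.7, chromosome 14, 55941451 to 55944675, GRCm38), the mast cell chymase, had 16008, 12715 and 15911 FPKM in NRASG12D and 163, 697 and 144 FPKM with the fusion added. Replicate 2 kept the most, yet all 3 libraries lay far below the other group, and the mean was lower by 44.4 times (log2 fold change -5.86, standard error 0.59, adjusted p = 0.000535). The fusion alone had 5904, 5267 and 6839 FPKM, between both groups, and its summed level of the list was 13373 to 16337 FPKM. As the mean log2(FPKM + 1) over the list, however, the fusion alone had 7.90, 8.12 and 8.32, against 7.32 to 7.94 in NRASG12D. The tryptase Tpsb2 had 7712, 12651 and 9149 FPKM in NRASG12D and 249, 1180.1 and 235 FPKM in NUP98-NSD1+NRASG12D, again with replicate 2 highest on the lower side (log2 fold change -4.55, standard error 0.63, adjusted p = 0.00186). Tpsg1, a membrane-bound tryptase, went from 1147, 1285 and 1129.8 to 15.6, 85 and 12.4 FPKM (log2 fold change -5.47, adjusted p = 0.00104).

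The same list held genes of the matrix that packs these proteases. Srgn, the serglycin core protein on which granule proteases are packed, had 3120.3, 2767 and 3089.8 FPKM in NRASG12D and 972, 807 and 842 FPKM with the fusion added, a fall of 3.42 times in the mean with no overlap (log2 fold change -1.78, standard error 0.21, adjusted p = 0.000974). Ndst2, which makes the sulfated heparin chains, had 119, 106 and 134 FPKM against 2.37, 13 and 2.24 FPKM (log2 fold change -4.49, adjusted p = 0.00111). Hs3st1, a heparan sulfate sulfotransferase, had 88.1, 34 and 98.2 FPKM against 0.268, 3.08 and 0.163 FPKM (log2 fold change -5.22, adjusted p = 0.000807). Serglycin is also made by neutrophils and macrophages, and its transcript was at 807 FPKM or more in every library. Gzmb, a granzyme that cultured mouse mast cells also make, had 3274, 3082 and 3120.1 FPKM in NRASG12D and 55.3, 328 and 17 FPKM in NUP98-NSD1+NRASG12D (log2 fold change -5.51, standard error 0.94, adjusted p = 0.00433). Mcpt8, a protease typical of basophils, was not called, with 47.9, 16.2 and 52 FPKM against 200.1, 333 and 18 FPKM (adjusted p = 0.254), and the groups overlapped, with replicate 3 low on the side of the fusion. Without that library it was called higher (adjusted p = 0.0135). Cpa3, the mast cell carboxypeptidase, is listed at 0 in the 3 NRASG12D libraries beside the high levels of other mast cell transcripts given above and at 353, 1821 and 279.6 FPKM with the fusion added. Such a 0 can be a failed estimate, so no fold is given for it.

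**Figure D2:**
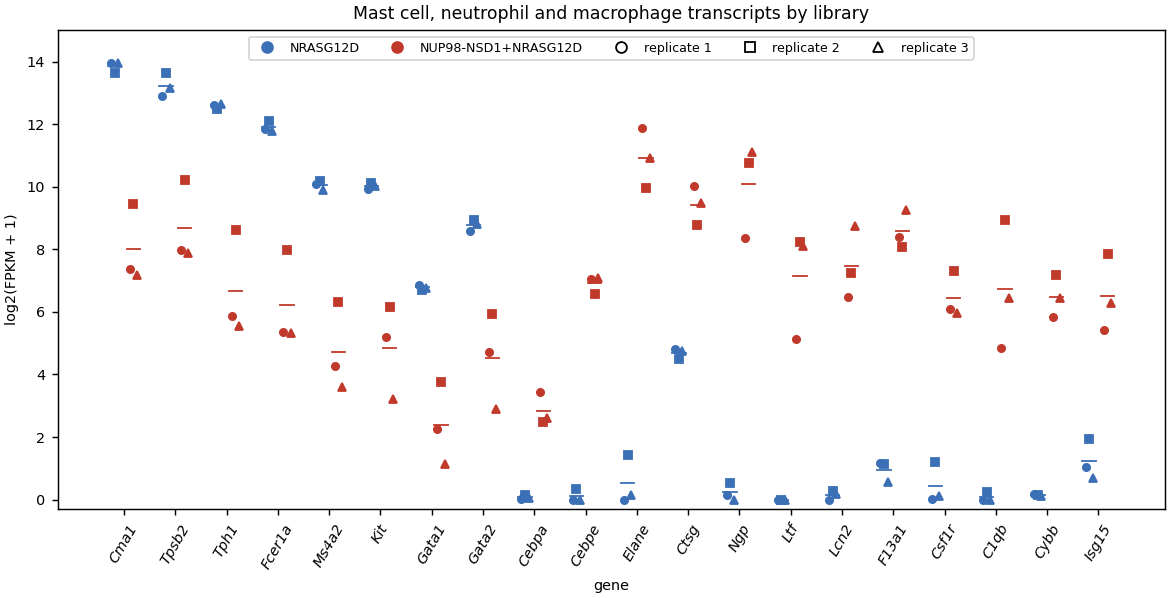
Level of 20 named genes as log2(FPKM + 1) in each library of NRASG12D (blue) and NUP98-NSD1+NRASG12D (red), with circles, squares and triangles for replicates 1, 2 and 3 and a line at the group mean. The mast cell genes from Cma1 to Gata2 lie higher in all 3 NRASG12D libraries, and the genes from Cebpa to Isg15 lie higher in all 3 libraries with the fusion.

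GATA factors are known to act on many mast cell genes, and the sequences before the starts of these genes are therefore shown. The letters AGATAA, a core GATA site, were looked for on both strands in RefSeq promoters of GRCm38.p6 that run from 250 bases before to 50 after each start. They were found in 11.2% of all 32851 promoters and in 9 of 29 (31.0%) promoters of the mast cell genes called lower, which had promoters for 23 of 28 genes. A match is a description of the letters and not of a bound site. Other forms of a GATA site were not searched. Shown are the 250 bases before the start for both specific chains of the IgE receptor, for Cd200r3 and for Cma1. Cd200r3 is an activating receptor of mast cells and basophils. The Cma1 bases hold no AGATAA on either strand, which does not exclude other forms of the site. In this order they lie at chr1:173227230-173227479 (minus strand), chr19:11623720-11623969 (minus), chr16:44943428-44943677 (plus) and chr14:55944676-55944925 (minus). Matches to AGATAA on either strand are in capitals.
Fcer1a: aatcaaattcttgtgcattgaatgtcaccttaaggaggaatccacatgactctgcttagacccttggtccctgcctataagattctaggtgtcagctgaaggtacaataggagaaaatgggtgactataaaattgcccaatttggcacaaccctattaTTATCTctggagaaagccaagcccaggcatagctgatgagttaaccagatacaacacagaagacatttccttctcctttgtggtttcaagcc
Ms4a2: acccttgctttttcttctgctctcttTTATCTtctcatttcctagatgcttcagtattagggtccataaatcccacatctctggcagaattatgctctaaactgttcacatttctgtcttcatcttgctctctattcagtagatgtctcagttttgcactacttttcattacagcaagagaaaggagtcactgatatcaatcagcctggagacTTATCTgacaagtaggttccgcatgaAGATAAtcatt
Cd200r3: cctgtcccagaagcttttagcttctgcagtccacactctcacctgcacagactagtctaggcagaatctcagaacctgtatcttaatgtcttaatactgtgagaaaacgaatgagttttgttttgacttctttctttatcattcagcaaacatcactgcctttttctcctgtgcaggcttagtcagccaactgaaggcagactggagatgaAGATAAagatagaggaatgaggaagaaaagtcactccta
Cma1: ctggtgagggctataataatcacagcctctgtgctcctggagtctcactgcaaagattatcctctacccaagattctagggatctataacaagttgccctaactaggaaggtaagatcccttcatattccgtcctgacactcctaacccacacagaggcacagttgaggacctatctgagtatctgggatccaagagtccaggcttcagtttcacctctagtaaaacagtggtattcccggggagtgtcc

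Enzymes and carriers of amine and lipid mediators changed in both directions. Of 11 tested genes, 6 were lower and 4 higher, with a median log2 fold change of -2.51, and 9 of the calls held on both other scales. The serotonin branch was lower. Tph1, the tryptophan hydroxylase that starts serotonin synthesis, had 6189, 5691 and 6354 FPKM in NRASG12D and 57, 389 and 45.7 FPKM with the fusion added, lower by 37.1 times (log2 fold change -5.90, standard error 0.76, adjusted p = 0.00135). Slc18a2, which loads amines into granules, had 431, 394 and 424 FPKM against 6.6, 28.2 and 3.99 FPKM (log2 fold change -5.33), and Ddc, the aromatic amino acid decarboxylase, had 8.53, 43.2 and 11.6 FPKM against 0.162, 0.810 and 0.246 FPKM (log2 fold change -3.66). Neither pair of groups overlapped. Leukotriene genes differed in direction. Alox5, the 5-lipoxygenase, had 1415, 1358 and 1425 FPKM in NRASG12D and 21.1, 103 and 112 FPKM in NUP98-NSD1+NRASG12D (log2 fold change -4.46, standard error 0.60, adjusted p = 0.00161). Ltc4s, which makes leukotriene C4, also fell, from 74.3, 64.3 and 85.9 FPKM to 4.48, 8.0 and 6.72 FPKM (log2 fold change -3.38), and 26.4% of its exon bases are overlapped by a gene on the other strand, a pair that these values may not separate. Lta4h, which makes leukotriene B4, the leukotriene of neutrophils, rose from 137, 141 and 141 FPKM to 599, 329 and 395 FPKM (log2 fold change 1.61, standard error 0.24, adjusted p = 0.00241). Among prostaglandin enzymes, Hpgds, the prostaglandin D2 synthase of mast cells, was lower (log2 fold change -2.51), and Ptgs1, cyclooxygenase 1, was higher at 11.5, 23 and 13.5 FPKM against 56.5, 83.8 and 105 FPKM (log2 fold change 2.29). Hdc, which makes histamine, had 3.61, 8.72 and 1.6 FPKM against 77.5, 129 and 8.08 FPKM, with overlap, and its call (adjusted p = 0.0408) was lost in 9 of 14 alternatives, among them those without any 1 of the NRASG12D replicates or replicate 1 or 2 of NUP98-NSD1+NRASG12D (adjusted p = 0.0579 to 0.132).

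The IgE receptor was lower in its specific chains, and its shared chain was not called. Fcer1a (ENSMUSG00000005339.10, chromosome 1, 173221284 to 173227214), the IgE-binding alpha chain, had 3717, 4435 and 3538 FPKM in NRASG12D and 40.3, 254 and 39.1 FPKM with the fusion added, lower by 35.1 times (log2 fold change -5.69, standard error 0.69, adjusted p = 0.00108). Ms4a2, the beta chain, had 1094, 1152 and 945 FPKM against 18.1, 78.3 and 11.1 FPKM (log2 fold change -5.33, standard error 0.63, adjusted p = 0.00100). In both genes the 3 libraries with the fusion lay below all NRASG12D libraries, with replicate 2 the highest of them. Fcer1g, the gamma chain that Fc receptors of macrophages and neutrophils share, had 1182, 1140.2 and 1062 FPKM and 652, 1251 and 1458 FPKM, overlapped, and was not called (log2 fold change -0.09, standard error 0.33, adjusted p = 0.842). Kit, the SCF receptor, had 982, 1119 and 1049 FPKM against 36, 70.7 and 8.27 FPKM, with replicate 3 lowest (log2 fold change -5.17, standard error 0.67, adjusted p = 0.00142). The IL-33 receptor Il1rl1 was lower as well (log2 fold change -5.58), as were the receptors Cd200r3 (log2 fold change -4.46) and Adora3 (log2 fold change -4.74).

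Downstream of the receptor, 13 of 18 tested genes of the IgE receptor and Kit list were lower and 2 higher, with a median log2 fold change of -2.7, and 14 of these calls held on both other scales. The count of lower genes was 13 with any library left out, and that of higher genes was 1 without NRASG12D replicate 1 or 3. The adaptor Lat had 425, 486 and 419 FPKM in NRASG12D and 10.7, 42.7 and 7.81 FPKM in NUP98-NSD1+NRASG12D (log2 fold change -4.74, standard error 0.55, adjusted p = 0.000944), and the related adaptor Lat2 was lower by less (log2 fold change -2.31), with 36.3% of its exon bases overlapped by Rfc2 on the other strand. The phospholipases that hydrolyze PIP2 went opposite ways. Plcg1 had 20.7, 32.4 and 31.4 FPKM against 2.7, 3.4 and 1.35 FPKM (log2 fold change -3.09, standard error 0.29, adjusted p = 0.000390). Plcg2 had 34.2, 36 and 38.1 FPKM against 74.8, 60.8 and 77.8 FPKM (log2 fold change 0.95, standard error 0.15, adjusted p = 0.00323). Neither gene's groups overlapped. The kinase Btk (log2 fold change -1.39) and the lipid phosphatase Inpp5d, known as SHIP1 (log2 fold change -1.87), were lower.

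Of 11 tested mast cell and basophil lineage factors, 7 were lower and 2 higher, and 9 calls held on both other scales. Gata1 (ENSMUSG00000031162.14, chromosome X, 7959260 to 7978071), a zinc finger factor of the erythroid, megakaryocyte and mast cell lineages, had 116, 104 and 108 FPKM in NRASG12D and 3.74, 12.6 and 1.22 FPKM with the fusion added, lower by 18.6 times (log2 fold change -4.40, standard error 0.59, adjusted p = 0.00162). The fusion alone had 59.3, 67.5 and 78.5 FPKM. Its mean log2(FPKM + 1) over this list was 5.43 to 5.63, against 5.37 to 5.55 in NRASG12D. Gata2, needed for mast cells and early progenitors, had 383, 492 and 450.4 FPKM against 25.6, 59.5 and 6.47 FPKM (log2 fold change -4.26, standard error 0.68, adjusted p = 0.00331), and Tal1, its partner in hematopoietic complexes, had 120.2, 120.1 and 119.8 FPKM against 11.1, 16 and 1.43 FPKM (log2 fold change -3.93, standard error 0.67, adjusted p = 0.00428). All 3 factors were lowest in replicate 3 and highest in replicate 2 on the side with the fusion. Mitf fell from 29.8, 33.1 and 30.6 FPKM to 4.13, 12.3 and 6.02 FPKM (log2 fold change -2.04, adjusted p = 0.00368). Lmo2, which bridges Tal1 and GATA factors, went the other way, from 17, 24.2 and 20.3 FPKM to 119.9, 82.3 and 109 FPKM (log2 fold change 2.28, standard error 0.20, adjusted p = 0.000326). Cebpa, the factor that commits progenitors to granulocytes and monocytes, had 0.0198, 0.107 and 0.0343 FPKM in NRASG12D and 9.81, 4.56 and 5.14 FPKM with the fusion added (log2 fold change 2.77, standard error 0.27, adjusted p = 0.000468). The NRASG12D values were at or near the floor of 3 fragments.

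Azurophil granule genes, the products of promyelocytes, were higher with the fusion added. Of 10 tested genes, 8 were higher and 2 lower, with a median log2 fold change of 5.89, and all 10 calls held on both other scales. The counts were the same with any 1 library left out. Elane (ENSMUSG00000020125.7, chromosome 10, 79886247 to 79888215), neutrophil elastase, had 0, 1.68 and 0.102 FPKM in NRASG12D and 3767, 994 and 1945 FPKM in NUP98-NSD1+NRASG12D (log2 fold change 10.40, standard error 0.56, adjusted p = 6.19e-05). Ctsg, cathepsin G, was present on both sides, at 27, 21.5 and 25.8 FPKM and 1048, 438 and 706 FPKM, higher by 29.5 times (log2 fold change 4.74, standard error 0.31, adjusted p = 0.000124). Mpo, myeloperoxidase, was uneven among the libraries with the fusion at 5139.6, 1463 and 131 FPKM, against 0, 3.53 and 0.218 FPKM in NRASG12D (log2 fold change 9.14, standard error 1.29, adjusted p = 0.00197). Replicate 1 was highest and replicate 3 lowest, and even the lowest lay above each NRASG12D library. Prtn3, proteinase 3 (log2 fold change 9.46), Ms4a3, a marker of granulocyte and monocyte progenitors (log2 fold change 6.44), and Plac8 (log2 fold change 5.93) were also higher. The list's lower genes were the elastase inhibitor Serpinb1a, at 1538, 1596 and 1559 FPKM against 274, 327 and 313 FPKM (log2 fold change -2.36, standard error 0.17, adjusted p = 0.000171), and Cst7, cystatin F, at 362, 384 and 393 FPKM against 191, 119.8 and 122 FPKM (log2 fold change -1.43).

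Genes of the later granules and of neutrophil maturation were near 0 in NRASG12D and high with the fusion added. Of 22 tested, 20 were higher, 0 lower and 2 not called, with a median log2 fold change of 6.21, and 19 to 22 were higher with 1 library left out. The list's summed level was 3.42 to 12.5 FPKM in NRASG12D and 3698 to 18687 FPKM in NUP98-NSD1+NRASG12D. Ngp (ENSMUSG00000032484.8, chromosome 9, 110419747 to 110423012), the neutrophilic granule protein, had 0.111, 0.453 and 0 FPKM against 325, 1734 and 2216 FPKM (log2 fold change 9.84, standard error 0.68, adjusted p = 0.000142). Lactoferrin, Ltf, is listed at 0 in the 3 NRASG12D libraries and had 34, 297 and 274 FPKM with the fusion added (adjusted p = 0.000690). Replicate 1 was lowest for both genes. Cathelicidin, Camp, was also at 0 in NRASG12D and at 31.6, 68.4 and 61.5 FPKM in the other group (adjusted p = 5.45e-05), and ficolin B, Fcnb, was at 0 and at 94.2, 84.1 and 91.4 FPKM (adjusted p = 6.50e-06).

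Several of these genes were even among the libraries with the fusion. The collagenase Mmp8 had 471, 502 and 370.4 FPKM there and 0.367, 3.9 and 0.504 FPKM in NRASG12D (log2 fold change 7.69, standard error 0.48, adjusted p = 0.000104). Pglyrp1, a peptidoglycan-binding protein of specific granules, had 179.9, 236 and 236 FPKM against 0.0890, 0.446 and 0.128 FPKM (log2 fold change 7.48, standard error 0.19, adjusted p = 6.50e-06). Cebpe, the factor that drives specific granule genes, had 133, 94.8 and 136 FPKM against 0, 0.272 and 0 FPKM (log2 fold change 6.80, standard error 0.20, adjusted p = 1.35e-05), and 82.7, 64 and 15.8 FPKM in the fusion alone. Genes of mature neutrophils varied more. Cd177, a neutrophil surface antigen, had 15.9, 59.3 and 227 FPKM with the fusion added (log2 fold change 5.91), and Padi4, which citrullinates histones, had 12.1, 74.6 and 173 FPKM (log2 fold change 5.66). Lcn2, lipocalin 2, had 87.6, 149.8 and 424 FPKM against 0, 0.217 and 0.144 FPKM (log2 fold change 7.32). These 3 genes were highest in replicate 3 and lowest in replicate 1, whereas Csf3r, the G-CSF receptor, had 48.4, 32.3 and 12.7 FPKM in the same libraries, in the reverse order (log2 fold change 4.78). The genes not called were Retnlg, listed at 0 in NRASG12D and at 1.45, 19.5 and 356 FPKM with the fusion (adjusted p = 0.0527), and Ly6g, at 2.53, 2.45 and 3.24 FPKM against 3.76, 14 and 59.6 FPKM (adjusted p = 0.0781). Their groups did not overlap, and both were called higher without replicate 1 of NUP98-NSD1+NRASG12D (adjusted p = 0.00895 for Retnlg and 0.0110 for Ly6g).

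C/EBP factors are known to act on neutrophil granule genes, and the letters TTNNGCAA of a C/EBP site were looked for in the same way in their promoters. These letters were in 10.8% of all promoters and in 8 of 27 (29.6%) promoters of 25 genes, out of 28 azurophil and later granule genes called higher. Lists and motif were chosen with earlier results known. Here too the shares describe letters, not bound sites, and their difference was not tested. Shown are 3 genes with a match, in capitals, for lactoferrin, the collagenase and the calcium-binding protein S100a9: chr9:111019042-111019291 (plus), chr9:7558179-7558428 (plus) and chr3:90695722-90695971 (minus), GRCm38.p6, from RefSeq starts.
Ltf: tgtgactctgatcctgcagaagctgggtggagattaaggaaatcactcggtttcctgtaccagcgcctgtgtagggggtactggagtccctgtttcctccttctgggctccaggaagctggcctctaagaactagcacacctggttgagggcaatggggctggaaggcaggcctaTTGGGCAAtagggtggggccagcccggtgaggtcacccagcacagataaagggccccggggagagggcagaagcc
Mmp8: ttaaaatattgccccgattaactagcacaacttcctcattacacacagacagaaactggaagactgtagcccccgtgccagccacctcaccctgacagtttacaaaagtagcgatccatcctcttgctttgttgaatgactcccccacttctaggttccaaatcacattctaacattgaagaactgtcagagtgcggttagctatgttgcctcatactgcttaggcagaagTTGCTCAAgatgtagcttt
S100a9: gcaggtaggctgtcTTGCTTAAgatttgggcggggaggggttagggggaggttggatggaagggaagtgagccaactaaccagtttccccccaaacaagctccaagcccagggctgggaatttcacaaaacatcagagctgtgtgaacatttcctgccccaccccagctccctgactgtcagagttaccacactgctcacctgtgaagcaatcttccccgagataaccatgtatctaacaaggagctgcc

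Monocyte and macrophage genes were higher in nearly the whole list. Of 29 tested, 28 were higher and 1 lower, with a median log2 fold change of 6.17, and the counts were the same on both other scales and with any 1 library left out. The summed level was 79.5 to 190.3 FPKM in NRASG12D and 7999 to 31871 FPKM in NUP98-NSD1+NRASG12D. Lysozyme, Lyz2, had 27.9, 71.9 and 3.68 FPKM against 3370.1, 8813 and 9554 FPKM (log2 fold change 8.26, standard error 0.96, adjusted p = 0.000939), and 15.4% of its 50-base windows also occur in other genes, chiefly Lyz1. Csf1r, the M-CSF receptor that monocytes and macrophages depend on, had 0.0222, 1.28 and 0.0913 FPKM against 66.8, 158 and 60.8 FPKM (log2 fold change 6.0, standard error 0.45, adjusted p = 0.000183). F13a1, the coagulation factor XIII chain made by monocytes, had 1.23, 1.18 and 0.474 FPKM against 332, 269 and 616 FPKM (log2 fold change 7.63, standard error 0.33, adjusted p = 3.57e-05), and the monocyte chemokine receptor Ccr2 was higher (log2 fold change 4.70). No values of these genes overlapped between the groups.

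Mature macrophages are known for complement C1q, lipid receptors and lysosomal proteins. The complement chains C1qb, at 27.9, 485 and 85.3 FPKM (log2 fold change 6.66, adjusted p = 0.00174), and C1qc, at 16.2, 346 and 56.4 FPKM (log2 fold change 5.74), differed by more than an order of magnitude within the group with the fusion. The lipid receptor Trem2 had 41.9, 242 and 82.6 FPKM (log2 fold change 6.40), and Gpnmb, a glycoprotein of lipid-laden macrophages, had 196, 2209.5 and 1481 FPKM (log2 fold change 8.96). The scavenger receptor Msr1 (log2 fold change 5.86), lipoprotein lipase, Lpl (log2 fold change 6.60), and the fatty acid carrier Fabp5 (log2 fold change 6.18) were higher too. The lysosomal glycoprotein Cd68 had 26.2, 34.4 and 20.9 FPKM in NRASG12D and 129.8, 682 and 456 FPKM with the fusion added (log2 fold change 3.64). These 5 genes were highest in replicate 2. The gene that was lower was the fractalkine receptor Cx3cr1, with 21.4, 11.1 and 21.4 FPKM against 4.36, 2.83 and 2.36 FPKM (log2 fold change -2.15, standard error 0.30, adjusted p = 0.00200).

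The 3 libraries of NUP98-NSD1+NRASG12D did not carry these programs in equal parts. As the mean log2(FPKM + 1) over each list, mast cell granule genes were at 4.44, 5.90 and 4.00 in replicates 1, 2 and 3, and at 7.32 to 7.94 in NRASG12D. Azurophil genes were at 9.87, 8.62 and 8.25 and later neutrophil genes at 5.40, 6.43 and 7.17, so that replicate 1 led for the early granules and replicate 3 for the late ones. Counted by gene, the highest library was replicate 1 for 9 of 10 azurophil genes and replicate 3 for 13 of 22 later neutrophil genes. Monocyte and macrophage genes were at 5.88, 7.78 and 6.91, with replicate 2 highest for 18 of 29. On none of these lists did a library of NUP98-NSD1+NRASG12D reach the range of the NRASG12D libraries. Replicate 3 also had the lowest share of mitochondrial transcripts, 0.668% of its FPKM against 1.17% to 1.40% in the other 5, and its part in these differences was not tested.

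**Figure D3:**
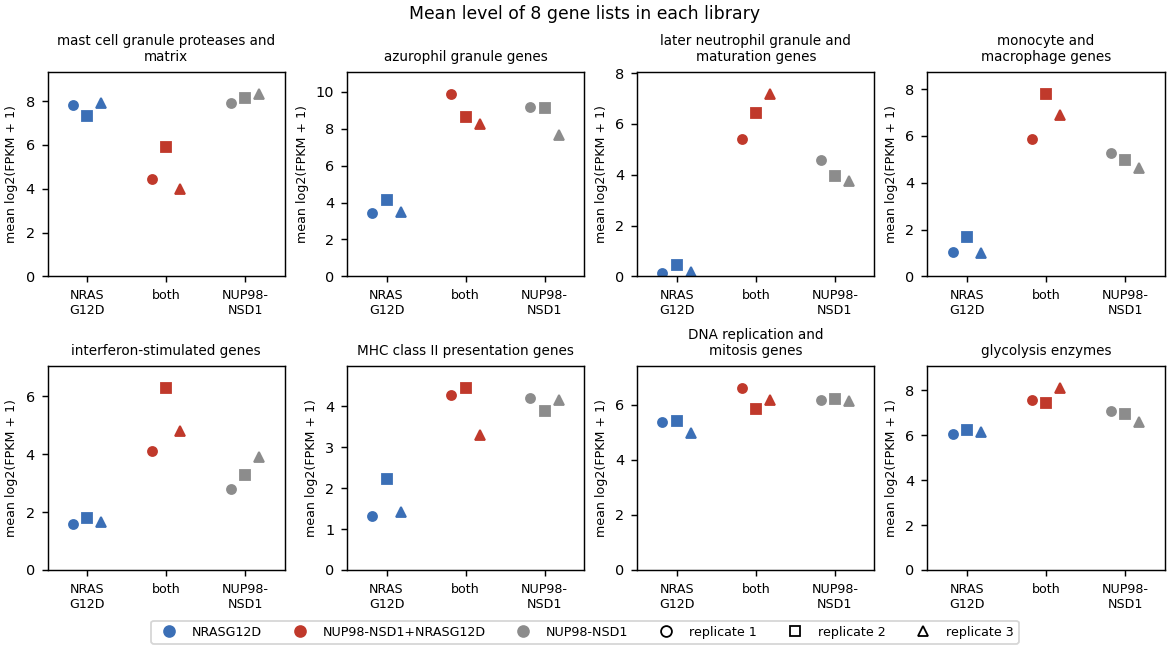
Mean log2(FPKM + 1) over the tested genes of 8 lists in each of the 9 libraries, with 1 point per library (blue NRASG12D, red NUP98-NSD1+NRASG12D, labelled both, and grey NUP98-NSD1 alone). Points of NUP98-NSD1+NRASG12D never reach the NRASG12D range for the mast cell granule, azurophil, later neutrophil and macrophage lists, and they are spread more widely than those of NRASG12D.

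Of 16 tested transcription factors of myeloid fate, 10 were higher and 2 lower, with a median log2 fold change of 1.69. Spi1, which encodes PU.1, was expressed on both sides, with 76.4, 81.3 and 72.6 FPKM in NRASG12D and 269, 235 and 274 FPKM with the fusion added, and the groups did not overlap (log2 fold change 1.74, standard error 0.14, adjusted p = 0.000248). Cebpd had 0.519, 1.2 and 0.740 FPKM against 24.7, 20.3 and 21 FPKM (log2 fold change 3.67, standard error 0.20, adjusted p = 6.19e-05), even among the libraries with the fusion. Irf5, a factor of inflammatory macrophages, had 5.74, 6.7 and 5.91 FPKM against 50.6, 64.9 and 44.6 FPKM (log2 fold change 2.92, standard error 0.18, adjusted p = 0.000101). Gfi1, of granulocytes, was higher at low levels (log2 fold change 1.51). Egr1, an immediate early gene that also takes part in macrophage fate, was lower at 324, 279 and 257 FPKM against 17, 34.5 and 26.4 FPKM (log2 fold change -3.46, standard error 0.26, adjusted p = 0.000181), whereas the fusion alone had 496, 379 and 552 FPKM.

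Among 9 tested genes listed for the study's flow cytometry panel, 4 were higher and 3 lower, beside 24.2% and 14.1% of all tested genes. Itgam, which encodes CD11b, had 0.0263, 0.796 and 0.0219 FPKM in NRASG12D and 31.6, 117 and 138 FPKM with the fusion added (log2 fold change 6.04, standard error 0.56, adjusted p = 0.000368). Of its 50-base windows, 66.3% also occur in the annotated gene Gm49368, so its level depends on how fragments were assigned. Ly6c1, a gene for the Ly6C antigen, had 25.1, 26.6 and 30.2 FPKM against 309.7, 328 and 854 FPKM (log2 fold change 3.97), and 32.8% of its windows occur in other genes of the family. The study's antibodies for mouse cells included Gr-1 and none named for Ly6C. Ly6g, also in this list, was not called, as given above. Ly6a, the Sca-1 antigen, with 19.0% of its windows in other genes, was lower at 1482, 1587 and 1857 FPKM against 337, 779 and 179 FPKM (log2 fold change -2.18, standard error 0.50, adjusted p = 0.0145), a call that was lost without NRASG12D replicate 3 (adjusted p = 0.0567).

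Receptors and effectors by which phagocytes sense and kill microbes were higher. Of 25 tested genes for the phagocyte oxidase, Fc gamma receptors and pattern receptors, 21 were higher and 0 lower, with a median log2 fold change of 3.77, and the same 21 held on both other scales. Cybb, the catalytic subunit of the oxidase, had 0.128, 0.117 and 0.0731 FPKM in NRASG12D and 56.2, 144 and 87 FPKM with the fusion added (log2 fold change 6.35, standard error 0.32, adjusted p = 5.45e-05). The cytosolic subunit Ncf1 (log2 fold change 1.34) rose much less, and Ncf4 was not called, at 243, 241 and 215 FPKM against 194, 229 and 208 FPKM (adjusted p = 0.452). After quantile normalization Ncf4 was called lower (log2 fold change -0.54, adjusted p = 0.042). The lectins Clec5a (log2 fold change 7.42), Clec4n (log2 fold change 6.41) and Clec12a (log2 fold change 6.37), the toll-like receptors Tlr2 (log2 fold change 5.03) and Tlr4 (log2 fold change 1.76) and the high-affinity IgG receptor Fcgr1 (log2 fold change 4.22) were higher. For MHC class II presentation, 9 of 14 tested genes were higher and 0 lower. The invariant chain Cd74 had 0.278, 16.6 and 0.831 FPKM against 419, 627 and 132 FPKM (log2 fold change 6.57, standard error 1.04, adjusted p = 0.00318), with NRASG12D replicate 2 the highest of its group. Ctss, the protease that trims the invariant chain, had 0.791, 4.21 and 1.2 FPKM against 363, 1630.2 and 383 FPKM (log2 fold change 7.80, standard error 0.66, adjusted p = 0.000259). H2-Ab1, a class II beta chain, had 0.312, 3.81 and 0.550 FPKM against 43.3, 55.8 and 7.42 FPKM (log2 fold change 3.69, adjusted p = 0.0119). Without NRASG12D replicate 1 or 3, 5 genes of this list were higher.

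Interferon-stimulated genes were higher in nearly the whole list. Of 22 tested, 21 were higher, 0 lower and 1 not called, with a median log2 fold change of 3.55. On both other scales 17 held, and 15 to 22 were higher with 1 library left out. Isg15, a ubiquitin-like protein, had 1.07, 2.83 and 0.615 FPKM in NRASG12D and 41.6, 231 and 76.5 FPKM with the fusion added (log2 fold change 5.29, standard error 0.62, adjusted p = 0.000976). Irf7, the factor that amplifies the interferon response, had 1.27, 1.78 and 1.42 FPKM against 46.3, 295 and 76 FPKM (log2 fold change 5.37, standard error 0.62, adjusted p = 0.000876) and 13.9, 27.5 and 40.6 FPKM in the fusion alone. Oas3, which senses double-stranded RNA, had 0.187, 0.647 and 0.491 FPKM against 15.2, 89.7 and 44.5 FPKM (log2 fold change 4.83, standard error 0.57, adjusted p = 0.000998). In each of these genes replicate 2 was the highest and replicate 1 the lowest library with the fusion, and all 3 lay above NRASG12D. Replicate 2 was highest for 21 of the 22 genes. Ifit1 (log2 fold change 4.18), Oasl2 (log2 fold change 5.41) and the nucleic acid sensor Zbp1 (log2 fold change 5.75) were higher as well. The interferon gamma receptor chains Ifngr1 (log2 fold change 3.10) and Ifngr2, at 4.38, 4.57 and 2.65 FPKM against 67.8, 93.5 and 86.8 FPKM (log2 fold change 4.12), rose as well.

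The letters GAAA, any 2 bases and GAAA again, the core of an interferon response element, were searched on both strands. They were in 3.44% of all promoters and in 9 of 17 (52.9%) promoters of 15 genes, out of 21 interferon-stimulated genes called higher. The list holds genes already known to answer to interferon, and list and motif were chosen with earlier results known. The shares describe letters, not bound sites, and their difference was not tested. The 250 bases before the starts of Isg15, which has 3 overlapping matches, and of Oas3, which has 1, are shown with the matches in capitals: chr4:156200819-156201068 (minus) and chr5:120777660-120777909 (minus), GRCm38.p6, from RefSeq starts.
Isg15: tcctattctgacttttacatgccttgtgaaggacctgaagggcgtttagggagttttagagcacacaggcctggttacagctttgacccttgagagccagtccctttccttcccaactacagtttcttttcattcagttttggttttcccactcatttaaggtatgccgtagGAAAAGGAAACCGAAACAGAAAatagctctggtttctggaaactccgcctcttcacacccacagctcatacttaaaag
Oas3: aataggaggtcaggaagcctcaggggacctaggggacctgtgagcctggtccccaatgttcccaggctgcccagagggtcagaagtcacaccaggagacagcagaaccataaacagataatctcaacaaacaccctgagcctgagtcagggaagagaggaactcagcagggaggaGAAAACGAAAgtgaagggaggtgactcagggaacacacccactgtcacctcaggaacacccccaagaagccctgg

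Cytokine receptors changed in both directions. Of 27 tested, 11 were higher and 12 lower, beside 24.2% and 14.1% of all tested genes. The median log2 fold change was -0.15, and all 23 calls held on both other scales. The receptors for 2 of the cytokines in the medium, SCF and IL-3, were lower. Beside Kit, the beta chain that IL-3, IL-5 and GM-CSF share, Csf2rb, had 742, 729.5 and 759 FPKM in NRASG12D and 104, 193 and 127 FPKM with the fusion added (log2 fold change -2.44, standard error 0.24, adjusted p = 0.000516). Csf2rb2, the beta chain that mouse cells use for IL-3 alone, had 888, 841 and 945 FPKM against 34.3, 107 and 42.5 FPKM (log2 fold change -4.02, standard error 0.40, adjusted p = 0.000493). Csf2rb and Csf2rb2 share 12.3% and 18.9% of their 50-base windows with other genes. The IL-3 receptor alpha chain, Il3ra, had 47.1, 45.9 and 54.2 FPKM against 8.94, 23.7 and 25.2 FPKM (log2 fold change -1.42, standard error 0.37, adjusted p = 0.0226), a call lost without any 1 of the NRASG12D replicates (adjusted p = 0.0621 to 0.0811). The receptor for the third cytokine, IL-6, was higher. Its binding chain, Il6ra, had 0.0141, 0.136 and 0.0250 FPKM against 29.6, 16.8 and 17.6 FPKM (log2 fold change 4.35, standard error 0.24, adjusted p = 7.01e-05), and its signalling chain, Il6st, was higher too (log2 fold change 2.69).

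The alpha chain for GM-CSF, Csf2ra, went opposite to the beta chains, with 16.1, 17.2 and 16.5 FPKM in NRASG12D and 123, 254 and 191 FPKM with the fusion added (log2 fold change 3.37, standard error 0.26, adjusted p = 0.000201). Tnfrsf1a, a receptor for TNF, was higher (log2 fold change 5.29). The TGF-beta receptor Tgfbr1 was lower at 173, 169.9 and 175 FPKM against 9.44, 21.6 and 11 FPKM (log2 fold change -3.62, standard error 0.29, adjusted p = 0.000219), and Il4ra (log2 fold change -1.73) and Il9r (log2 fold change -2.48), for the mast cell growth factors IL-4 and IL-9, were lower. No group overlapped for the genes of this paragraph whose libraries are given.

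Cytokine and chemokine transcripts also changed in both directions, with 8 of 21 tested genes higher and 7 lower, and 4 lower without NRASG12D replicate 3. Over all tested genes the shares were 24.2% higher and 14.1% lower. The macrophage chemokine Ccl3 had 0.837, 2.59 and 0.414 FPKM in NRASG12D and 99.1, 168 and 423 FPKM with the fusion added (log2 fold change 6.52, standard error 0.57, adjusted p = 0.000290), and Ccl4 (log2 fold change 6.77) and the neutrophil attractant Cxcl2 (log2 fold change 4.06) were higher. So were Il1rn, which blocks the IL-1 receptor (log2 fold change 5.56), and Il18 (log2 fold change 2.58). Il6 was lower, with 35.9, 28.5 and 28.2 FPKM in NRASG12D and 0.871, 5.67 and 0.613 FPKM in NUP98-NSD1+NRASG12D (log2 fold change -3.54, standard error 0.52, adjusted p = 0.00229), although the fusion alone had 32.6, 35.9 and 36.8 FPKM. Lif, of the same family, had 15.4, 13.6 and 11.6 FPKM against 0.437, 2.2 and 0.573 FPKM (log2 fold change -2.90, standard error 0.32, adjusted p = 0.000777).

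**Figure D4:**
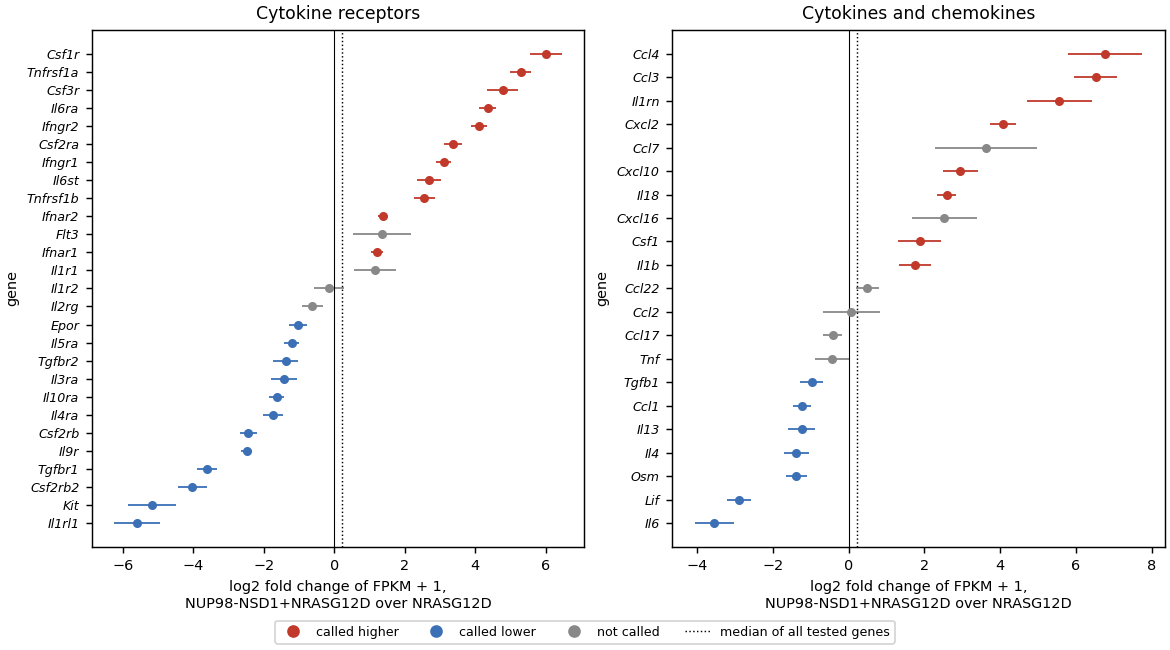
Log2 fold change of FPKM + 1 with its standard error for the tested cytokine receptors and for the tested cytokines and chemokines, NUP98-NSD1+NRASG12D over NRASG12D, with called genes in red (higher) or blue (lower) and others in grey. Csf1r, Tnfrsf1a and Csf3r lie farthest to the right among the receptors and Il1rl1 and Kit farthest to the left.

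NRASG12D was present on both sides, and RAS genes and regulators were compared in a list with genes that ERK signalling is known to turn on, feedback inhibitors included. Of 23 tested genes of this mixed list, 3 were higher, 10 lower and 10 not called, with a median log2 fold change of -0.40, and 12 calls held on both other scales. Over all tested genes the shares were 24.2% higher and 14.1% lower. Spred1, which inhibits RAS through neurofibromin, had 26.2, 25.9 and 32 FPKM in NRASG12D and 1.8, 5.2 and 2.35 FPKM with the fusion added (log2 fold change -2.90, standard error 0.31, adjusted p = 0.000621), and 7.3, 8.12 and 12.3 FPKM in the fusion alone. Spry4, another feedback inhibitor, had 3.25, 3.2 and 5.06 FPKM against 0.302, 0.511 and 0.0908 FPKM (log2 fold change -1.88, standard error 0.22, adjusted p = 0.000975). Ier3 had 421, 429 and 407 FPKM against 56.4, 99.7 and 109 FPKM (log2 fold change -2.29, standard error 0.26, adjusted p = 0.000842), and the early genes Egr3 (log2 fold change -2.09) and Phlda1 (log2 fold change -2.63) were lower, the latter with 33.0% of its exon bases overlapped by a gene on the other strand. These groups did not overlap. Fos went the other way, with 9.14, 7.85 and 5.03 FPKM against 73.4, 52 and 39.1 FPKM (log2 fold change 2.73, standard error 0.29, adjusted p = 0.000623) and 189.6, 133 and 97.8 FPKM in the fusion alone. Dusp6, the phosphatase that is a common readout of ERK activity, was not called, with 67, 70.9 and 83.8 FPKM against 24.8, 51.8 and 131 FPKM (adjusted p = 0.574). Its values overlapped, replicate 3 being the highest of the 6 and replicate 1 the lowest. Without NRASG12D replicate 1 or 3, 1 gene of this list was higher.

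Of 11 tested Hoxa genes and cofactors, 6 were higher, all of them Hoxa genes, and 2 lower, beside 24.2% and 14.1% of all tested genes. Hoxa9 (log2 fold change 5.74), Hoxa7 (log2 fold change 5.17) and Hoxa10 (log2 fold change 4.49) were higher, and 20.4% of the exon bases of Hoxa7 are overlapped by an antisense gene that these values may not separate. Meis1, the HOX cofactor, was lower, with 46.3, 49.3 and 49.5 FPKM in NRASG12D and 8.35, 11.5 and 9.02 FPKM with the fusion added (log2 fold change -2.23, standard error 0.16, adjusted p = 0.000155). The fusion alone had 39.4, 40.2 and 49.4 FPKM, all above the libraries with both genes. The second cofactor that was lower was Pbx3 (log2 fold change -1.0, standard error 0.17, adjusted p = 0.00380).

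Other progenitor and self-renewal genes were more often lower than higher, with 8 of 14 tested lower and 1 higher. The lower count was 3, 4 and 4 without NRASG12D replicate 1, 2 and 3. As the mean log2(FPKM + 1) over the list, NRASG12D had 3.66, 3.74 and 3.70, and NUP98-NSD1+NRASG12D had 3.32, 3.14 and 1.97. The fusion alone had 4.16, 4.23 and 4.22, above both groups. Ikzf2, the Helios factor, had 28.7, 30.7 and 27.4 FPKM in NRASG12D and 1.52, 5.31 and 0.257 FPKM with the fusion added (log2 fold change -3.46, standard error 0.53, adjusted p = 0.00275). Mecom, which encodes EVI1, had 9.24, 7.75 and 8.76 FPKM against 0.443, 0.891 and 0.0454 FPKM (log2 fold change -2.75, standard error 0.24, adjusted p = 0.000311). The stem cell antigen Cd34 had 307, 333 and 341 FPKM against 117, 72.9 and 9.53 FPKM (log2 fold change -2.86, standard error 0.82, adjusted p = 0.0318), with no overlap, and its call was lost without any 1 of the NRASG12D replicates (adjusted p = 0.0808 to 0.0921). Tcf4 was the higher gene, with 1.96, 2.17 and 1.67 FPKM against 26.4, 25.5 and 17.1 FPKM (log2 fold change 3.01, standard error 0.21, adjusted p = 0.000142). Myc was not called, with 163, 166 and 179 FPKM against 243, 149 and 193 FPKM (adjusted p = 0.523).

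Of 25 tested DNA replication and mitosis genes, 17 were higher and 0 lower, with a median log2 fold change of 0.99, and 12 held on both other scales. Without NRASG12D replicate 1, 2 or 3, 9, 10 and 6 were higher. Aurka, the mitotic kinase, had 25.2, 27 and 19.9 FPKM in NRASG12D and 103, 54.6 and 82.9 FPKM with the fusion added (log2 fold change 1.66, standard error 0.25, adjusted p = 0.00277). Ccne1, cyclin E1, had 11.6, 10.9 and 8.13 FPKM against 38.4, 23.9 and 34.3 FPKM (log2 fold change 1.55, standard error 0.23, adjusted p = 0.00221). Replicate 1 was the highest library with the fusion for 24 of the 25 genes. Of 13 tested D cyclins and CDK inhibitors, 2 were higher, 3 lower and 8 not called, a share of calls near the 38.3% of all genes, and 1 was higher without NRASG12D replicate 1 or 3. Ccnd2, cyclin D2, was lower, with 1020.5, 1178 and 1404 FPKM against 234, 266 and 125 FPKM (log2 fold change -2.58, standard error 0.31, adjusted p = 0.00108), as was Rb1, the retinoblastoma gene, with 38.8, 27.4 and 28.1 FPKM against 4.59, 7.11 and 3.57 FPKM (log2 fold change -2.44, standard error 0.25, adjusted p = 0.000604).

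Glycolysis enzymes were higher in 15 of 19 tested genes and lower in 2, with a median log2 fold change of 1.84, and 17 calls held on both other scales. Hexokinase genes differed in direction. Hk3, the hexokinase of myeloid cells, had 0.0289, 0.670 and 0.0619 FPKM in NRASG12D and 87.4, 135 and 213 FPKM with the fusion added (log2 fold change 6.81, standard error 0.35, adjusted p = 5.47e-05). Hk2 was higher (log2 fold change 1.85), and Hk1 was lower, at 184, 187 and 199.7 FPKM against 62.5, 77.1 and 88.5 FPKM (log2 fold change -1.32, standard error 0.17, adjusted p = 0.00136). Eno1, enolase, had 438, 346 and 404 FPKM against 1987, 1394 and 2849.8 FPKM (log2 fold change 2.33, standard error 0.29, adjusted p = 0.00125), and Pkm, pyruvate kinase, had 729, 933 and 902 FPKM against 2147, 1947 and 3569.5 FPKM (log2 fold change 1.53, standard error 0.29, adjusted p = 0.00699). Gpi1 (log2 fold change 2.12) and Pgk1 (log2 fold change 2.22) were higher. Other annotated genes share 26%, 25.8% and 53.9% of the 50-base windows of Eno1, Pkm and Pgk1. The glucose transporter Slc2a3 was lower, with 77.9, 104 and 93.5 FPKM against 9.01, 26.3 and 7.98 FPKM (log2 fold change -2.77, standard error 0.42, adjusted p = 0.00256). Replicate 3 was the highest library with the fusion for 16 of the 19 genes.

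**Figure D5:**
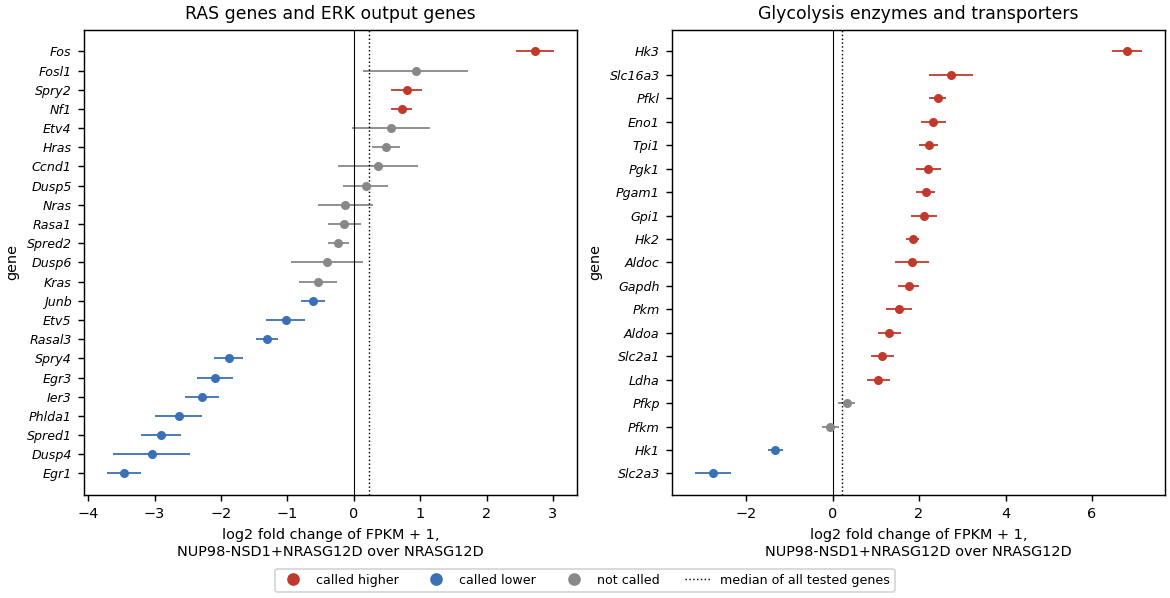
Log2 fold change of FPKM + 1 with its standard error for the tested RAS and ERK output genes and for the tested glycolysis enzymes, NUP98-NSD1+NRASG12D over NRASG12D, with called genes in red (higher) or blue (lower) and others in grey. Fos is the farthest right and Egr1 the farthest left among the first, and Hk3 stands apart among the second.

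Sterol and fatty acid synthesis genes mostly did not pass the test, with 5 of 24 higher, 2 lower and 17 not called, a share of calls below the 38.3% of all genes. The farnesyl diphosphate synthase Fdps, with 26.2% of its windows in other genes (log2 fold change 1.94), and the desaturase Scd2, at 10, 16.4 and 10 FPKM against 57.8, 55.8 and 53.4 FPKM (log2 fold change 2.14), were higher. Lss, lanosterol synthase, was lower at 47.8, 64.4 and 53.6 FPKM against 23.9, 23.6 and 30.6 FPKM (log2 fold change -1.06, standard error 0.18, adjusted p = 0.00413). Of the lower genes, 1 was left without any 1 of the NRASG12D replicates or replicate 2 of NUP98-NSD1+NRASG12D. Among 19 tested fusion partners and chromatin regulators, 16 were not called, 1 was higher and 2 were lower, a share of calls below the 38.3% of all genes. Without replicate 1 or 2 of NUP98-NSD1+NRASG12D, 2 and 3 of them were higher, and without replicate 2 of that group 4 were lower. The lower ones were the H3K27 demethylase Kdm6a, at 29.3, 32.3 and 29.8 FPKM against 17.1, 18.5 and 17.6 FPKM (log2 fold change -0.74, standard error 0.13, adjusted p = 0.00504), and Ezh1 (log2 fold change -1.06, standard error 0.21, adjusted p = 0.00759). The higher gene was Suz12 (log2 fold change 0.62), whose call was lost on both other scales, with the replicate number as a block, without any 1 of the NRASG12D replicates and without replicate 3 of NUP98-NSD1+NRASG12D (adjusted p = 0.0510 to 0.136).

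Adhesion genes changed in both directions, with 10 of 23 tested higher and 6 lower, beside 24.2% and 14.1% of all tested genes. All 16 calls held on both other scales. The integrin chain Itga4 (log2 fold change 2.11) and the hyaluronan receptor Cd44 (log2 fold change 2.43) were higher. Itgb7, the partner of Itga4 that brings mast cell progenitors into tissue, was lower at 335, 209 and 337 FPKM against 68.2, 54.5 and 37.2 FPKM (log2 fold change -2.45, standard error 0.29, adjusted p = 0.000932). Itga2b, the integrin of megakaryocytes and cultured mast cells, had 479, 558 and 493 FPKM against 11.6, 50.1 and 4.43 FPKM (log2 fold change -5.07, standard error 0.73, adjusted p = 0.00211). Cadm1, by which mast cells adhere to nerves and fibroblasts, had 117, 90.1 and 103 FPKM against 1.05, 5.71 and 2.47 FPKM (log2 fold change -4.84, standard error 0.40, adjusted p = 0.000253), and the granule membrane tetraspanin Cd63 was lower (log2 fold change -2.39).

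Of the 15 genes that fell and the 15 that rose the most by the naming rule, several were outside the lists. The cell cycle inhibitor Rprm, called reprimo, had 391, 404 and 371 FPKM in NRASG12D and 3.93, 25.5 and 5.19 FPKM with the fusion added (log2 fold change -5.39, standard error 0.59, adjusted p = 0.000711). Calca, which encodes calcitonin and its related peptide, had 302, 403 and 162 FPKM against 2.92, 17.1 and 3.52 FPKM (log2 fold change -5.31, standard error 0.62, adjusted p = 0.000932). The actin-binding Avil had 429, 273 and 404 FPKM against 3.9, 18.8 and 4.0 FPKM (log2 fold change -5.53), and the receptor phosphatase Ptprg (log2 fold change -5.64), the monoamine oxidase Maob (log2 fold change -5.23) and Ctla2a (log2 fold change -5.22), with 25.5% of its windows in other genes, were lower by a like size. All of these were highest in replicate 2 among the libraries with the fusion, and no groups overlapped. Among the rises, Slpi, the secreted inhibitor of leukocyte proteases, had 0.197, 0.746 and 0.360 FPKM against 271, 526 and 4739.6 FPKM (log2 fold change 9.28, standard error 0.96, adjusted p = 0.000576), with replicate 3 far above the rest. Haptoglobin, Hp, had 0, 0.542 and 0.0745 FPKM against 507, 204 and 484 FPKM (log2 fold change 8.29, standard error 0.38, adjusted p = 4.20e-05).

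Markers of other lineages that the cultures could hold differed widely in level. Of 14 lymphocyte and NK cell markers 2 were high enough to be tested, and their summed level was 0.971 to 1.30 FPKM in NRASG12D and 1.93 to 14.8 FPKM in NUP98-NSD1+NRASG12D. The T cell receptor subunit Cd3e, at 0, 0.0318 and 0.0354 against 0, 0 and 0 FPKM, was at or near 0 in every library. Of 12 stromal and endothelial markers 3 were tested, with sums of 104.1 to 106.9 and 40.3 to 72.8 FPKM, and 4 of 12 dendritic cell markers were tested, with sums of 78.4 to 85.2 and 209.0 to 538.1 FPKM. Erythroid markers summed to 15.2 to 16.9 and 35.0 to 106.6 FPKM, with 1 of 6 tested genes higher and 5 without replicate 3 of NUP98-NSD1+NRASG12D. Megakaryocyte markers summed to 616.0 to 683.7 FPKM in NRASG12D, mostly Itga2b, and to 83.6, 1259 and 132.2 FPKM with the fusion added, mostly Pf4. Of 6 tested megakaryocyte markers, 2 were higher and 3 lower, with a median log2 fold change of -0.80. Over all tested genes the shares were 24.2% higher and 14.1% lower. Itga2b, given above, was among the lower ones. Pf4, platelet factor 4, which macrophages also make, had 0.187, 3.96 and 0.550 FPKM against 62.8, 1157 and 111 FPKM (log2 fold change 6.60, standard error 1.09, adjusted p = 0.00381). Eosinophil and basophil markers summed to 408.0 to 449.4 FPKM in NRASG12D and to 36.8 to 718.2 FPKM with the fusion, with 4 of 9 tested genes higher and 2 lower. Without NRASG12D replicate 1, 2 or 3 only 1 of them was higher, and 2 without replicate 1 or 2 of NUP98-NSD1+NRASG12D. Of the 2 lower genes, Cd200r3, given above, had a log2 fold change of -4.46, and Mcpt8 was among the genes not called. Among the 4 higher genes, chosen after their values were seen, were Prg2, the eosinophil major basic protein, at 0, 0 and 0.0618 FPKM against 26.7, 196 and 2.84 FPKM (log2 fold change 4.76, standard error 1.25, adjusted p = 0.0238), and the basophil protease Prss34, at 0.445, 1.11 and 1.47 FPKM against 110.1, 104 and 4.64 FPKM (log2 fold change 4.36, standard error 1.10, adjusted p = 0.0205). The 3 libraries with the fusion spread widely in both genes, and both calls were lost without any 1 of the NRASG12D replicates or replicate 1 of NUP98-NSD1+NRASG12D (adjusted p = 0.0566 to 0.0711), and that of Prss34 also without replicate 2 of that group (adjusted p = 0.0505). The part of such cells in the results above was not tested.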

How the data were processed

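RNA of 9 sorted and expanded mouse cultures was sequenced by the authors as paired-end reads of 50 bp. Per the labels the values were made with STAR 2.7.2a and Cufflinks 2.2.1, against GRCm38 with GENCODE M22 genes in the methods. The deposited values are FPKM, 1 per gene and library, normalized by the authors to transcript length and mapped fragments. Strand-specific counting is not given in the sources used here. Depth was estimated from the steps between low FPKM values, of which 72.6% to 78.9% per library lay within 0.1 of a whole number of fragments.

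FPKM were summed per gene identifier. A gene was kept if 3 or more of the 9 libraries had 1 FPKM or more, and limma 3.58.1 (lmFit, then eBayes, R 4.3.3) was run on log2(FPKM + 1) of the 6 libraries, with Benjamini-Hochberg adjustment over the 13493 genes and a threshold of 0.05. An exact permutation test of 3 against 3 libraries cannot give a two-sided p below 0.1 and was not used. Groups were taken from the sample type label. The members, gene lists and motifs were chosen with earlier results of these data known. Genes named were those of the lists, the 15 with the largest rise and fall among called protein-coding genes without overlap and with at least 10 FPKM, the 10 most abundant of each group, and Nras, Nup98 and Nsd1. Shares of 50-base windows and exon overlaps came from reference gene models of GRCm38. Alternatives were another pseudocount, 2 other filters, 2 other scalings, a fit of all 9 libraries, array weights, a replicate block and leaving out each library. The limma fit was tested on simulated data with known changes. A count test was not run, since the values are not counts. Some genes of the lists are not reported here by name.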

Additional observations from a re-analysis of the deposited data

How the results depend on the processing

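The count of 5173 called genes was 2941 to 6327 with 1 library left out, 5211 with a pseudocount of 0.1, 5239 after median-ratio scaling, 5219 after quantile normalization, 3871 of 41853 without a filter on low values, 3943 of 9762 with a filter of 5 FPKM, 6506 with all 9 libraries in a single fit and 6596 with array weights. Of these, the 3266 higher genes became 1911 without a filter, 2155 after quantile normalization and 1727 to 4202 with 1 library left out. The 1907 lower genes became 3064 after quantile normalization and 1214 to 2125 with 1 library left out. With the replicate number as a block, 4531 genes were called, 2873 higher and 1658 lower. Samples with the same number did not deviate together (correlations of 0.0456, 0.0613 and -0.0590). Since the labels do not give the origin of the replicates, this cannot decide whether same-numbered cultures shared one.

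For the 171 tested genes named, 2319 of 2388 pairs of a gene and an alternative kept their direction and their side of the threshold, 39 lost a call and 14 gained one. The 16 pairs that changed sign were of 5 genes that were not called. Dusp6 was at 0.35 with array weights, and at -1.01 to 0.16 with 1 library left out. Fcer1g was at 0.20 with array weights, and at -0.32 to 0.26 with 1 library left out. Myc was at -0.063 after median-ratio scaling and -0.18 after quantile normalization, Nras was at 0.40 with array weights and -0.62 to 0.14 with 1 library left out, and Nsd1 was at -0.21 and -0.24 on the 2 other scales and -0.13 to 0.19 with 1 library left out. Without a filter on low values, fewer genes were called, and Cd34, H2-Ab1, Hdc, Il3ra, Ly6a, Prg2, Prss34 and Suz12 were no longer called. Of the gene lists, interferon-stimulated genes then had 13 higher, replication and mitosis genes 6 higher, MHC class II genes 4 higher, progenitor genes 2 lower and cytokines 3 lower. With a filter of 5 FPKM, 3 Hoxa genes and cofactors were higher, as were 1 RAS and ERK gene and 5 cytokines, and 4 cytokines were lower. Chromatin regulators had 4 lower after median-ratio scaling and 6 after quantile normalization, which also gave 4 lower sterol genes, and array weights gave 8 higher sterol genes and 5 higher RAS and ERK genes. The cause of these changes was not tested. Values near 0 in NRASG12D, which many neutrophil and macrophage genes have, are limited by the floor of 3 fragments.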
